A study of Mus musculus with 42 samples.

Results

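Muscle fibres are built from fast or slow versions of the same contractile proteins, and the genes described here encode 10 of those versions. The slow set holds Myh7, Tnni1, Tnnt1 and Atp2a2, and the fast set holds Myh1, Myh2, Myh4, Tnni2, Tnnt3 and Atp2a1. They were chosen by gene symbol alone, as 10 of the 21186 genes that the arrays name, and they are read by 22 of the 34891 probes that carry a symbol.

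RNA of skeletal muscle and of aorta was measured on 42 single-colour Agilent mouse arrays, 1 array per mouse and tissue, with 3 male mice taken at random from each of 7 groups. The healthy group was C57BL/6 mice. The other 6 groups were KK/Ay mice, a strain in which the yellow agouti allele is followed by obesity and high blood glucose. The diabetic group was KK/Ay mice with spontaneous diabetes. In the macroangiopathy group, KK/Ay mice were fed a high-fat diet and drank water with L-NAME, which blocks nitric oxide synthase. This was done for 8 weeks to set up the model, before the mice were divided into groups. The last 4 groups were mice of that macroangiopathy model given SHENQI compound, its yangyinyiqi part, its huoxue part or rosiglitazone, an agonist of the nuclear receptor PPARγ. Treatments by gavage then lasted 8 weeks, and the first 3 groups received saline in the same way. The age given for the mice, 18 to 20 weeks, is that on entering the study and not that at sampling. Comparisons of KK/Ay groups with the healthy group therefore also compare 2 strains, and the sources used here do not name the muscle that was taken.

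A fibre contracts when calcium binds the troponin complex on the thin filament and myosin heads can then pull on actin. The heavy chain of myosin sets much of the speed of shortening. Slow, fatigue-resistant fibres use Myh7, which the ventricle of the heart also uses, while fast fibres use Myh2, Myh1 or Myh4, in order of rising speed. Tnni1 and Tnni2 encode the slow and fast inhibitory subunits of troponin, and Tnnt1 and Tnnt3 encode the slow and fast subunits that bind tropomyosin. Atp2a2 and Atp2a1 encode the slow and fast pumps that return calcium to its store, and Atp2a2 is also made in heart and smooth muscle.

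Probes of 5 of the genes called in muscle are given here because the level of a gene is the mean brightness of such sequences. Only probes with an open reading frame are printed. The Myh4 and Myh1 probes that moved most, A_51_P338072 and A_51_P192042, have none, so the probes shown for these genes are those that moved less. Both Tnni1 probes are shown since they gave the same direction. All are 60 bases long, and their places come from the array files, on build mm9. The Myh4 probe lies at chr11:67072804-67072863 on the plus strand in 1 unbroken stretch. The Myh1 probe crosses an intron and spans chr11:67022830-67023932 on the plus strand. The Tnni1 probes cross introns and span chr1:137705328-137706203 and chr1:137704148-137705229 on the plus strand, in the order printed. The Tnnt1 probe lies at chr7:4460086-4460145 on the minus strand in 1 unbroken stretch. The Tnnt3 probe crosses an intron and spans chr7:149698254-149698479 on the plus strand.
Myh4 A_52_P602147: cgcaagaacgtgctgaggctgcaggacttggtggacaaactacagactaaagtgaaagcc
Myh1 A_51_P364788: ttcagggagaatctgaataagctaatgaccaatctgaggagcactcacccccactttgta
Tnni1 A_52_P657360: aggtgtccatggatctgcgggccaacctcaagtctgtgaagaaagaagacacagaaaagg
Tnni1 A_51_P435704: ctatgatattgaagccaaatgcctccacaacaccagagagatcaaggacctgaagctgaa
Tnnt1 A_51_P362627: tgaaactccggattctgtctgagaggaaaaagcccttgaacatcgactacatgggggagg
Tnnt3 A_52_P622418: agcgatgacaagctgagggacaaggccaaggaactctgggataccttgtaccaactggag

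The 250 bases before the start of transcription are shown for pairs of genes called in the same direction in the main fit. The fast heavy chains Myh4 and Myh1 were called lower in huoxue muscle. The slow troponin genes Tnni1 and Tnnt1 were called higher in diabetic muscle. All but the Myh4 difference turned in sign under another scaling of the arrays, as given below. The sequences are RefSeq sequences of build GRCm38.p6, and 7 of the 10 genes matched that table, without Atp2a2, Tnni2 and Tnnt3. Capitals mark matches, on either strand, to 4 motifs: the E-box CANNTG bound by MyoD and related factors, the TATA box TATAAA, the MCAT element CATTCC bound by TEAD factors, and the MEF2 consensus. The windows are chr11:67237562-67237811 on the plus strand for Myh4, chr11:67199852-67200101 on the plus strand for Myh1, chr1:135799171-135799420 on the plus strand for Tnni1 and chr7:4515976-4516225 on the minus strand for Tnnt1. For Tnni1 the first of 2 listed starts was used.
Myh4 promoter: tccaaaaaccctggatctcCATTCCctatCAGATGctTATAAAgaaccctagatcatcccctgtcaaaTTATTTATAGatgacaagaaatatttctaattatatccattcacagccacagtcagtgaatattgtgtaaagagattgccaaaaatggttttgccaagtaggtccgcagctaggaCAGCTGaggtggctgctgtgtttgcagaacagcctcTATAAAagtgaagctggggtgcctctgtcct
Myh1 promoter: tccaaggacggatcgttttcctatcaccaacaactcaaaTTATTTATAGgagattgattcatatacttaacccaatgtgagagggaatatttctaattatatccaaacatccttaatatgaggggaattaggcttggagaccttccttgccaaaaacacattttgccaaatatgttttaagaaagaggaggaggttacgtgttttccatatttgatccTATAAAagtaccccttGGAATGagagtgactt
Tnni1 promoter: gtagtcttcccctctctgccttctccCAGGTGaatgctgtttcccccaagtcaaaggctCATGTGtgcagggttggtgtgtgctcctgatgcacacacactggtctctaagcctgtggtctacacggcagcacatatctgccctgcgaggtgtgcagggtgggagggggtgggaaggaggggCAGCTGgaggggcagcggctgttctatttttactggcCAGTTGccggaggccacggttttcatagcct
Tnnt1 promoter: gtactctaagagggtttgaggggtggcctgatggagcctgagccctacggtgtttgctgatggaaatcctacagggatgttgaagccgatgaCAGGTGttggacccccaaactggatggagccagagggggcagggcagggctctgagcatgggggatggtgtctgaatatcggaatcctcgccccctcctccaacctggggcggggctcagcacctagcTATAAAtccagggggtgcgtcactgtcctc

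Myh4 and Myh1 held the same match to the MEF2 consensus, TTATTTATAG, at 182 to 173 bases before the start in Myh4 and at 211 to 202 bases in Myh1. In both genes this match overlapped a TATAAA match on the other strand. A TATAAA match also lay at 31 to 26 bases before the start of Myh4, at 32 to 27 bases in Myh1 and at 30 to 25 bases in Tnnt1. The Tnni1 window held 4 E-boxes and no match to the other motifs. Of 32851 promoter windows of this length, 66.2% held an E-box, 12.4% TATAAA, 12.6% CATTCC and 2.92% the MEF2 consensus. A match is a run of letters and not a measured binding site.

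All levels below are log2 intensities after background correction and quantile normalization, so a difference of 1 is a 2-fold difference, and the levels of different genes or probes are not compared. Between 49.09% and 65.25% of probes were well above background on a muscle array and between 57.94% and 73.58% on an aorta array. The low end in muscle was the 3 huoxue arrays and rosiglitazone replicate 1, all on 1 slide, at 49.09% to 52.39% against 54.16% to 65.25% on the other 17, and its part in the huoxue and rosiglitazone results was not tested. The arrays lay on 11 slides of up to 4 arrays, and muscle lay on 6 of them. Slides 5, 7 and 8 held the diabetic, macroangiopathy, SHENQI and yangyinyiqi muscles, while slides 3, 4 and 11 held the healthy, huoxue and rosiglitazone muscles. No slide held muscle of both sets. Slide and group therefore cannot be told apart when KK/Ay muscle without treatment is compared with healthy muscle or when huoxue or rosiglitazone muscle is compared with macroangiopathy muscle. Scan days were split as well. Diabetic, macroangiopathy, SHENQI, yangyinyiqi and huoxue muscle and rosiglitazone replicate 1 were scanned on the same day. Healthy muscle was scanned on other days, with replicates 1 and 2 on the day of rosiglitazone replicates 2 and 3. The RNA is of whole tissue, so fewer cells of a type and less RNA per cell cannot be told apart.

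The plot of muscle levels shows that all 10 genes were well above background on all 21 muscle arrays, and that their spread was narrow. Over these arrays Tnni1 had the widest range of levels, 12.62 to 14.28, and Myh4 came next with 16.22 to 17.62. Tnni2 had the narrowest, 17.85 to 18.11, and its only probe was among the 20 brightest on every muscle array, where rank-based normalization leaves little room to move. Markers that define skeletal muscle fibres, such as the creatine kinase gene Ckm and the actin gene Acta1, had a mean level over 9 genes of 14.77 to 15.44 in muscle and 8.63 to 13.20 in aorta, and all 9 were above background on every muscle array.

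**Figure D1:**
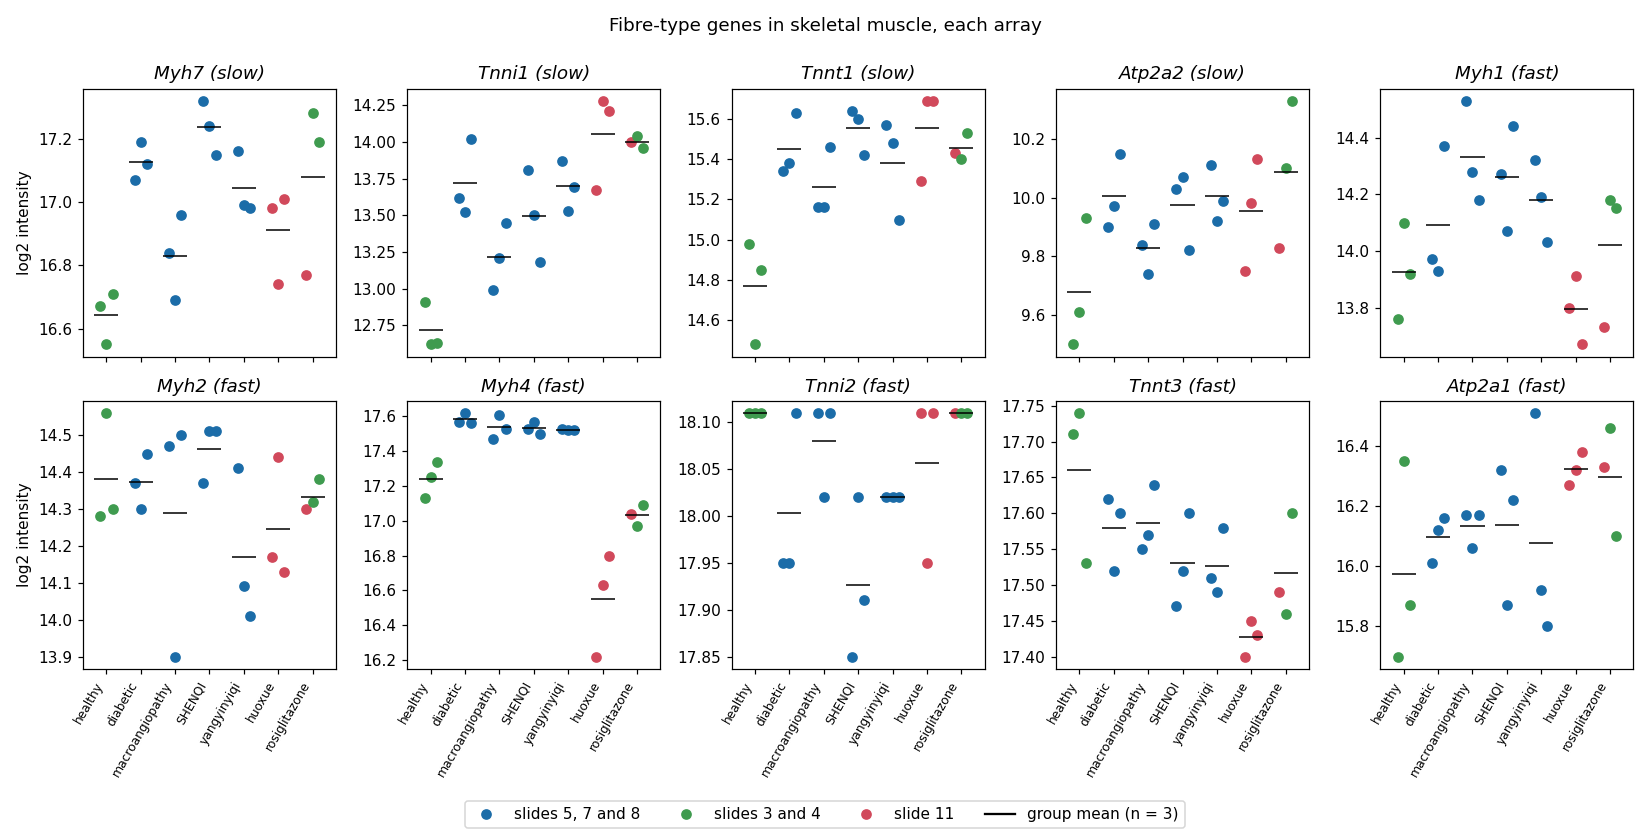
Levels (log2 intensity) of the 10 genes on each of the 21 skeletal muscle arrays, by group, with the group means. Points are single mice, 3 per group; Myh4 is lowest in huoxue muscle and Tnni1 is lowest in healthy muscle.

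The first comparison asked which of these genes differ between diabetic and healthy muscle. In diabetic muscle 3 slow genes and 1 fast gene were higher: Tnni1 2-fold, Tnnt1 1.6-fold, Myh7 1.4-fold and the fast Myh4 1.27-fold, although all 4 differences turned negative when arrays were centred on their medians without quantile normalization. These were 4 of 10 genes at an adjusted p below 0.05 (limma, Benjamini-Hochberg over 13888 genes), where 30% of all genes tested passed and 17.5% passed as higher. No member passed as lower. At an unadjusted p below 0.05, 5 members and 41.1% of all genes passed. Levels did not overlap between the groups for the same 4 genes, against 32.1% of all genes.

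Tnni1, the slow inhibitory troponin, had levels of 12.91, 12.62 and 12.63 in healthy replicates 1, 2 and 3 and of 13.62, 13.52 and 14.02 in diabetic replicates 1, 2 and 3. Every diabetic array was above every healthy array, and the difference was 1.0 ± 0.18 (SE, n = 3 per group, limma adjusted p = 0.000799). Healthy muscle, at 12.62 to 12.91, was also below every one of the 18 KK/Ay muscles, which began at 12.99. Tnnt1 had levels of 14.98, 14.48 and 14.85 in healthy muscle and of 15.34, 15.38 and 15.63 in diabetic muscle. It showed the same separation, with a difference of 0.68 ± 0.15 (limma adjusted p = 0.00297), and its healthy arrays were again below all KK/Ay arrays, which began at 15.10.

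Myh7, the slow heavy chain, had levels of 16.67, 16.55 and 16.71 in healthy muscle and of 17.07, 17.19 and 17.12 in diabetic muscle, a difference of 0.48 ± 0.11 (limma adjusted p = 0.00431). The groups did not overlap, and the other KK/Ay muscles ran from 16.69 to 17.32, on both sides of the diabetic ones. Atp2a2, the slow calcium pump, read 9.50, 9.61 and 9.93 in healthy muscle and 9.90, 9.97 and 10.15 in diabetic muscle. Its groups overlapped, and the difference of 0.33 ± 0.13 did not pass (limma unadjusted p = 0.0246, adjusted p = 0.0723).

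Myh4, the heavy chain of the fastest fibres, was the fast gene that passed. Its levels were 17.13, 17.25 and 17.34 in healthy muscle and 17.57, 17.62 and 17.56 in diabetic muscle, a difference of 0.34 ± 0.10 (limma adjusted p = 0.0155). The other 5 fast genes differed by between -0.10 for Tnni2 and 0.16 for Myh1, and none of them passed even without adjustment. Without healthy replicate 1 the Myh4 difference was 0.29 with an adjusted p of 0.0616, and with slide as a random block it was 0.34 with an adjusted p of 0.0825, so that call was lost in both limma fits. Tnni1, Tnnt1 and Myh7 passed with slide as a random block, with limma adjusted p-values of 0.0103, 0.025 and 0.0144. Here and in the later comparisons given with that block, the compared groups shared no slide. The random block therefore cannot remove a difference between their slides. Median centring set each array on the median of all its non-control spots, whether or not they were above background. The median difference of the 13888 genes tested was then itself at -0.62. Relative to that median Tnni1 stood at 0.17, Tnnt1 at -0.09, Myh7 at -0.32 and Myh4 at -0.39. Between quantile normalization and median centring the direction for Tnnt1, Myh7 and Myh4 thus differed even relative to the other genes tested.

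The macroangiopathy model was set against healthy muscle next. Tnnt1 was 1.4-fold and Myh4 1.23-fold higher in the model, and both turned negative with median centring. They were 2 of 10 members called, where 28.6% of 13846 genes passed. At an unadjusted p below 0.05, 4 members and 40.2% of all genes passed, and 4 members and 31.3% of all genes did not overlap between the groups. Tnnt1 had levels of 15.16, 15.16 and 15.46 in macroangiopathy muscle, all above the healthy arrays, and the difference was 0.48 ± 0.15 (limma adjusted p = 0.0226). Myh4 read 17.47, 17.61 and 17.53, also without overlap, a difference of 0.30 ± 0.10 (limma adjusted p = 0.0326). Tnni1, at 12.99, 13.21 and 13.45, and Myh1, at 14.53, 14.28 and 14.18 against 13.76, 14.10 and 13.92 in healthy muscle, did not overlap either. Their differences of 0.50 ± 0.18 and 0.40 ± 0.15 lay just beyond the threshold (limma adjusted p = 0.0508 and 0.0513).

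These calls rested on few arrays. Tnnt1 no longer passed without healthy replicate 2 (0.34, limma adjusted p = 0.087) or macroangiopathy replicate 3 (0.38, adjusted p = 0.102). Myh4 no longer passed without healthy replicate 1 (0.25, adjusted p = 0.113), macroangiopathy replicate 2 (0.26, adjusted p = 0.101) or macroangiopathy replicate 3 (0.30, adjusted p = 0.0733). Conversely, Tnni1 passed without healthy replicate 1 (0.60, adjusted p = 0.042) or macroangiopathy replicate 1 (0.61, adjusted p = 0.0437), and Myh1 passed without healthy replicate 2 (0.49, adjusted p = 0.0286). With slide as a random block neither Tnnt1 (0.51, adjusted p = 0.0509) nor Myh4 (0.29, adjusted p = 0.097) passed. Under median centring the median of all genes tested was -0.73, and relative to it Tnnt1 stood at -0.43 and Myh4 at -0.56.

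Between macroangiopathy and diabetic muscle, which are of the same strain, 0 of 10 genes passed after adjustment, as did 0 of 13713 genes in all. At an unadjusted p below 0.05 in limma, 2 members and 4.21% of all genes passed. Both were slow genes with lower levels in the macroangiopathy model. Tnni1 differed by -0.50 ± 0.18 (limma unadjusted p = 0.0147, adjusted p = 0.999) and Myh7 by -0.30 ± 0.11 (limma unadjusted p = 0.0169, adjusted p = 0.999), and neither gene overlapped between the groups, as was so for 14.3% of all genes. Slides 5 and 7 link these groups through the SHENQI muscles, and with slide as a fixed block the differences were -0.15 ± 0.33 for Tnni1 and -0.24 ± 0.14 for Myh7.

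Each treatment was then compared with the untreated macroangiopathy model. SHENQI compound gave 0 of 10 calls and 0 calls among 13511 genes after adjustment (limma), with 2 members and 1.35% of all genes at an unadjusted p below 0.05. Myh7 read 17.32, 17.24 and 17.15 under SHENQI compound and 16.84, 16.69 and 16.96 in the untreated model. The arrays did not overlap, as for 7.7% of all genes, and the difference was 0.41 ± 0.11 (limma unadjusted p = 0.0022, adjusted p = 1). Slide 7 held 2 arrays of each group, and within it the difference was 0.43, with 0.43 ± 0.09 in the fit with slide as a fixed block (limma unadjusted p = 0.000654, adjusted p = 0.864). Tnni2 was the other member, at -0.15 ± 0.05 (limma unadjusted p = 0.00953, adjusted p = 1), and with the slide block it was -0.10 ± 0.06.

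The yangyinyiqi part also gave 0 of 10 calls and 0 calls among 13672 genes after adjustment (limma), with 1 member and 1.71% of all genes at an unadjusted p below 0.05. Tnni1 read 13.87, 13.53 and 13.69, above the 12.99, 13.21 and 13.45 of the untreated model, with a difference of 0.48 ± 0.18 (limma unadjusted p = 0.0187, adjusted p = 1). Tnni1, Myh7 and Atp2a2 did not overlap between these groups, 3 of 10 members against 8.9% of all genes. Slide 8 held all 3 yangyinyiqi muscles and untreated replicate 3, and within it the Tnni1 difference was 0.25. Myh4, which moved in other comparisons, was nearly level here, at 17.53, 17.52 and 17.52 against 17.47, 17.61 and 17.53, a difference of -0.01 ± 0.10.

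Huoxue muscle held the largest difference of any member from the untreated model among the 4 treatments. All its arrays lay on slide 11, which held no muscle of that model. Relative to the untreated model Myh4 fell by 0.99 on the log2 scale, a 1.98-fold difference, and the fast genes Myh1 and Tnnt3 were lower by 0.53 and 0.16, while the slow Tnni1 rose by 0.83. The directions of Myh4 and Tnni1 held in all 16 other settings tried and their calls in 14, while Myh1 and Tnnt3 turned positive with median centring. These were 4 of 10 members called, where 22.7% of 13432 genes passed. At an unadjusted p below 0.05 the same 4 members and 36.5% of all genes passed. Levels did not overlap for 5 members, against 52.3% of all genes.

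Myh4 had levels of 16.22, 16.63 and 16.80 in huoxue muscle and of 17.47, 17.61 and 17.53 in the untreated model. All 3 huoxue arrays were below every other muscle array, and the difference was -0.99 ± 0.10 (limma adjusted p = 1.74e-05). It kept its call when any of the 6 arrays was left out, with differences from -1.11 to -0.82. Tnni1 read 13.67, 14.28 and 14.21 under huoxue, above all untreated arrays, a difference of 0.83 ± 0.18 (limma adjusted p = 0.00434). That call too was kept whichever of the 6 arrays was left out, with differences from 0.72 to 1.02.

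Myh1, the heavy chain of fibres next in speed to those of Myh4, read 13.80, 13.91 and 13.67 under huoxue against 14.53, 14.28 and 14.18, a difference of -0.53 ± 0.15 (limma adjusted p = 0.0164). The groups did not overlap, yet the call was lost without macroangiopathy replicate 1 (-0.43, adjusted p = 0.08) or huoxue replicate 3 (-0.47, adjusted p = 0.0661). Tnnt3, the fast troponin that binds tropomyosin, read 17.40, 17.45 and 17.43 against 17.55, 17.57 and 17.64, a difference of -0.16 ± 0.06 (limma adjusted p = 0.0437). That call was lost whichever of the 6 arrays was left out, with adjusted p-values from 0.0616 to 0.139. With slide as a random block Myh4 (-0.98, adjusted p = 0.000525) and Tnni1 (0.76, adjusted p = 0.0419) passed, while Myh1 (-0.45, adjusted p = 0.137) and Tnnt3 (-0.15, adjusted p = 0.155) did not. Median centring put the median of all genes tested at 0.21. Relative to that Myh4 stood at -0.67, Tnni1 at 1.17, Myh1 at -0.16 and Tnnt3 at 0.04.

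Rosiglitazone gave a similar pair of calls, with Myh4 1.42-fold lower and Tnni1 1.72-fold higher than in the untreated model, and both directions held in all 16 other settings tried, though Myh4 kept its call in 12 of them and Tnni1 in 11. These were 2 of 10 members, where 8.75% of 13568 genes passed. At an unadjusted p below 0.05, 3 members and 24.3% of all genes passed, and 3 members and 38.5% of all genes did not overlap. Myh4 read 17.04, 16.97 and 17.09, below all untreated arrays, and the difference was -0.50 ± 0.10 (limma adjusted p = 0.00609). Tnni1 read 13.96 to 14.04 on the 3 arrays, above all untreated arrays, and the difference was 0.78 ± 0.18 (limma adjusted p = 0.016). The Tnni1 call was lost without macroangiopathy replicate 1 (0.67, adjusted p = 0.0777) or replicate 2 (0.78, adjusted p = 0.0506), and with slide as a random block (0.70, adjusted p = 0.0901), where Myh4 still passed (-0.48, adjusted p = 0.0432). Myh7 read 16.77, 17.28 and 17.19, a difference of 0.25 ± 0.11 that passed only without adjustment (limma unadjusted p = 0.0412, adjusted p = 0.184). Without rosiglitazone replicate 1, which lay on slide 11, the Myh7 difference was 0.40 with an adjusted p of 0.0229. The huoxue and rosiglitazone comparisons share the 3 untreated arrays and are not independent.

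**Figure D2:**
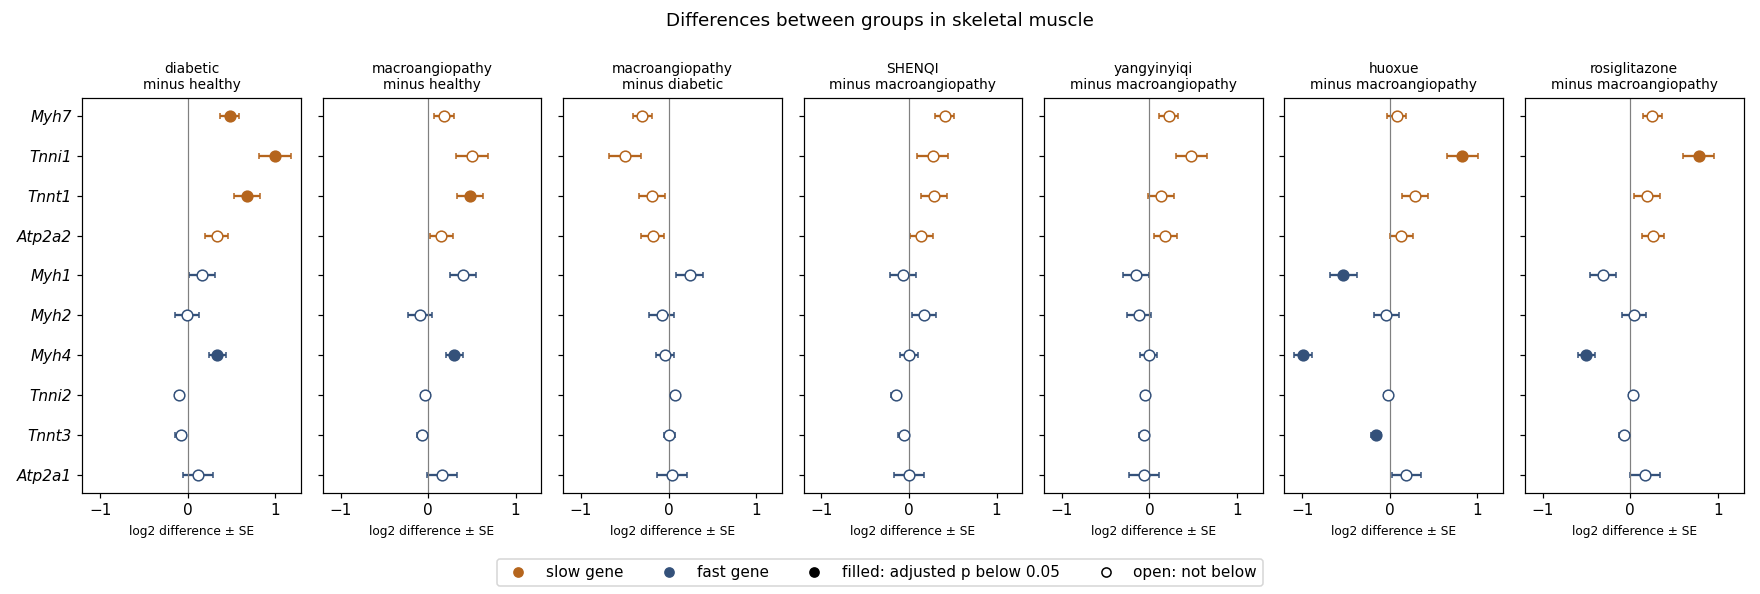
Differences in log2 level in skeletal muscle for the 10 genes in 7 comparisons, with standard errors from limma; filled points passed at an adjusted p below 0.05. Under huoxue Myh4 fell by 0.99 and Tnni1 rose by 0.83; with median centring in place of quantile normalization the calls against healthy muscle, and Myh1 and Tnnt3 under huoxue, turn in sign.

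The levels of Myh4 also followed the slides. On slides 5, 7 and 8 its 12 arrays lay between 17.47 and 17.62, on slides 3 and 4 its 5 arrays lay between 16.97 and 17.34, and on slide 11 its 4 arrays lay between 16.22 and 17.04. The first of these sets did not overlap the others, although it holds 4 groups that differ in diet and treatment. Within slide 11, the 3 huoxue arrays averaged 0.49 below rosiglitazone replicate 1, and within slide 3 rosiglitazone replicates 2 and 3 averaged 0.16 below healthy replicates 1 and 2. The part of the slides in the Myh4 differences between the sets cannot be told apart from that of the groups.

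Tnni1 did not follow the slides in that way. Its range was 12.99 to 14.02 on slides 5, 7 and 8, 12.62 to 14.04 on slides 3 and 4, and 13.67 to 14.28 on slide 11. Slide 3 held rosiglitazone and healthy muscle side by side, and there rosiglitazone averaged 1.24 higher for Tnni1, 0.73 higher for Tnnt1, 0.62 higher for Myh7 and 0.66 higher for Atp2a2. All 4 slow genes thus differed in the same direction within 1 slide, between mice that differ in strain, diet, L-NAME and rosiglitazone. Over the fast genes the same within-slide difference ran from -0.19 for Tnnt3 to 0.26 for Atp2a1.

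**Figure D3:**
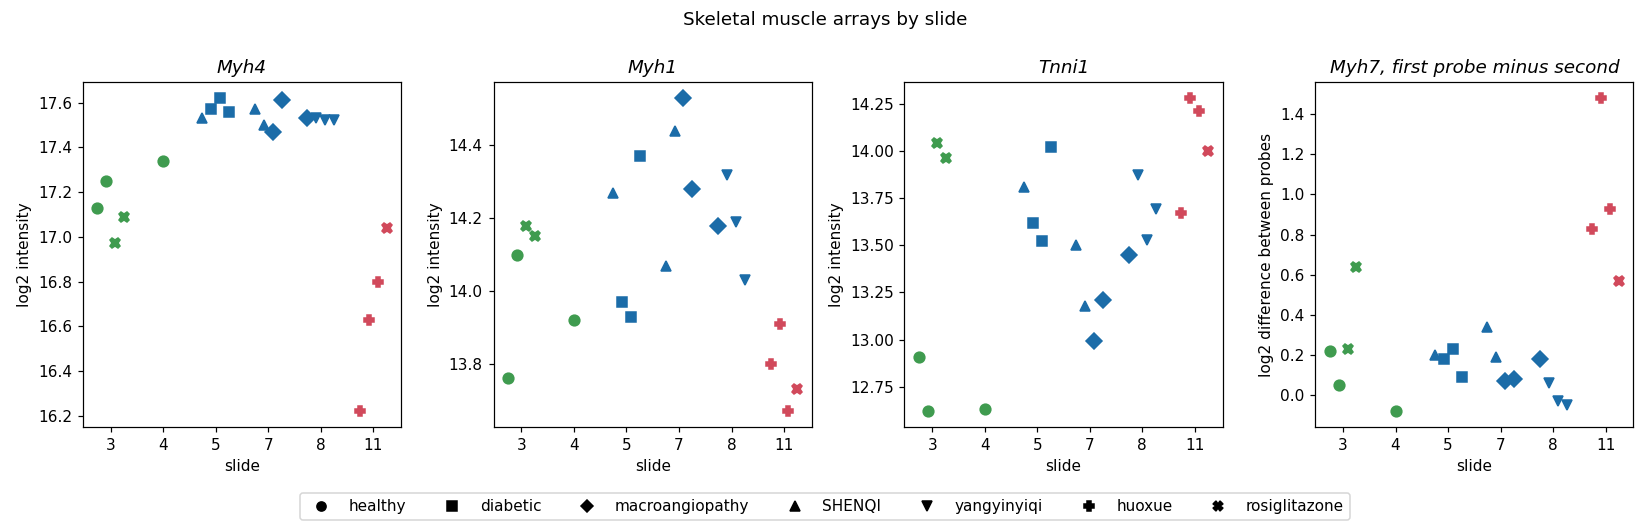
Muscle levels (log2 intensity) of Myh4, Myh1 and Tnni1 by slide, and the difference between the 2 Myh7 probes by slide. Points are single arrays, marker shapes are groups and colours are sets of slides. Myh4 lies between 17.47 and 17.62 on slides 5, 7 and 8 and lower elsewhere, Tnni1 overlaps between the sets of slides, and the Myh7 probes differ by 0.57 to 1.48 on slide 11.

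Probes of the same gene did not always give the same answer, and the disagreement was largest in huoxue muscle. The 2 probes of Myh7 share 55 of their 60 bases, yet in the huoxue comparison A_51_P143162 differed by 0.56 (limma adjusted p = 0.00115) and A_52_P88033 by -0.40 (adjusted p = 0.0525). Their difference was 0.57 to 1.48 on the 4 arrays of slide 11 and -0.08 to 0.64 on the other 17 muscle arrays. The Myh7 level in huoxue muscle, 0.08 ± 0.11 above the untreated model, is the mean of these opposed readings.

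For Myh4 both probes fell under huoxue, A_51_P338072 by 1.31 and A_52_P602147 by 0.66 (limma adjusted p = 2.74e-06 and 0.00641). Under rosiglitazone A_51_P338072 was lower by 0.74 (adjusted p = 0.000788), while A_52_P602147 differed by -0.26 (adjusted p = 0.308). For Tnni1 both probes rose in both comparisons, A_52_P657360 by 0.75 and A_51_P435704 by 0.91 under huoxue and by 0.70 and 0.86 under rosiglitazone, with limma adjusted p-values of 0.00787, 0.00156, 0.024 and 0.00616.

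For Myh1, Myh2 and Tnnt3, 1 probe of each moved under huoxue. Myh1 A_51_P192042 fell by 0.93 (limma adjusted p = 0.000176) and A_51_P364788 differed by -0.13 (adjusted p = 0.698). Myh2, which encodes the heavy chain of the slowest of the fast fibres, was not called as a gene, and of its probes A_51_P225134 fell by 0.60 (adjusted p = 0.00564) while A_52_P552036 and A_51_P395652 differed by 0.08 and 0.07. Tnnt3 A_52_P622418 fell by 0.43 (adjusted p = 0.00423) and A_51_P345699 differed by 0.11 (adjusted p = 0.617). Neither Atp2a1 probe passed (0.35 and 0.04), nor did the only Tnni2 probe (-0.02). Among the slow genes, Atp2a2 A_52_P168097 rose by 0.86 (adjusted p = 0.00148) and A_51_P451075 differed by -0.28 (adjusted p = 0.34). A further Atp2a2 probe, A_52_P1156808, was above background on 0 of the 21 muscle arrays. In diabetic against healthy muscle Atp2a1, the fast calcium pump, was not called as a gene, though its probe A_52_P686130 rose by 0.38 (adjusted p = 0.0124) and A_51_P244856 differed by -0.14 (adjusted p = 0.733).

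A single description of the slow against the fast set is the mean level of the 4 slow genes minus that of the 6 fast genes, centred on healthy muscle. It was 0.55 ± 0.06 (SD, n = 3) in diabetic muscle, 0.22 ± 0.13 in macroangiopathy muscle, 0.52 ± 0.20 under SHENQI compound, 0.54 ± 0.01 under yangyinyiqi, 0.81 ± 0.12 under huoxue and 0.70 ± 0.09 under rosiglitazone. Healthy muscle ran from -0.28 to 0.16, below the range of every group except the macroangiopathy model, which began at 0.08. In order from lowest to highest, all neighbouring groups overlapped in range. The index joins genes whose levels moved in different directions and carries no test.

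Other genes of the contractile apparatus were counted in fixed lists, under quantile normalization alone. Shares and medians for all genes are over the genes tested in that comparison. Of 10 genes that accompany the fast set, 3 were higher and 0 lower in diabetic against healthy muscle, where 30% of all genes were called and 17.5% were higher. The 3 were led by the calsequestrin gene Casq1 (2.52, limma adjusted p = 0.000126), with Myoz1 (0.74) and Tnnc2 (0.26). The list's median difference was 0.32, against 0.02 for all genes. In the macroangiopathy model, where 28.6% of all genes were called, 2 were higher, Casq1 (2.54) and Mybpc2 (0.42). Under huoxue, where 22.7% of all genes were called, 0 were higher and 4 lower, among them the calcium buffer Pvalb (-1.51), the fast light chain Mylpf (-0.76) and Mybpc2 (-0.59), with a list median of -0.19 against 0.045 for all genes. Under rosiglitazone, where 8.75% were called, 1 was lower, the fast troponin C gene Tnnc2 (-0.34). The mean over this list was 14.63 to 15.83 in healthy muscle, below the 15.84 to 15.89 of the diabetic and macroangiopathy arrays.

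The list that accompanies the slow set split in direction. Of 13 genes measured, 3 were higher and 1 lower in diabetic against healthy muscle, where 30% of all genes were called, so the count was near that share. They were Tnnc1, the troponin C of slow and cardiac muscle (1.72, limma adjusted p = 2.64e-05), the slow light chains Myl2 (0.60) and Myl3 (0.57), and Ankrd2, a stretch-responsive gene of slow fibres (-1.15, adjusted p = 0.019). In the macroangiopathy model, where 28.6% of all genes were called, Tnnc1 was higher (1.13), and Ankrd2 (-1.55) and Csrp3 (-0.92) were lower. Under huoxue, where 22.7% of all genes were called, 0 were higher and 2 were lower, the slow tropomyosin gene Tpm3 (-1.05) and Actn2 (-1.02), while Tnni1 of the main set rose. At an unadjusted p below 0.05 in limma, 3 of the list were higher and 3 lower. The list's median difference was 0.13, against 0.045 for all genes, so the list as a whole did not fall. Rosiglitazone, under which 8.75% of all genes were called, gave 0 calls in either direction, with 1 gene at an unadjusted p below 0.05. Of 6 genes of developing muscle, 1 was called, Myh8, the perinatal heavy chain, lower under huoxue (-0.29) and under rosiglitazone (-0.21). All genes passed at 22.7% and 8.75% there.

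Of 22 regulators of fibre type, 9 were higher and 0 lower in diabetic muscle and 8 were higher and 0 lower in macroangiopathy muscle against healthy muscle. Among all genes 17.5% and 16.3% were higher in these comparisons, and the list's median differences were 0.30 and 0.29 against 0.02 for all genes in both. They included Hdac4, a repressor of MEF2 factors, at 0.88 and 0.69, the mitochondrial coactivator Ppargc1b at 0.73 and 0.78, the fast-fibre factor Tbx15 at 0.53 and 0.69, and, in the model, the myogenic factor Myod1 at 0.79. Under huoxue 3 of 21 tested were lower, where 10.9% of all genes were: Hdac4 (-1.66, limma adjusted p = 0.000271), Hdac5 (-0.46) and the calcineurin subunit Ppp3cb (-0.45). Under rosiglitazone, where 4.98% of all genes were lower, Hdac4 (-0.92) and Ppp3cb (-0.32) were lower. These 4 lists had 0 calls in macroangiopathy against diabetic muscle and under SHENQI compound and yangyinyiqi, with 4, 0 and 2 genes at an unadjusted p below 0.05 in limma.

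Markers of other cell types moved with some of these groups, and their part in the results was not tested. For comparison, 17.5% of all genes were called higher and 12.5% lower in diabetic against healthy muscle. In the macroangiopathy model 16.3% were higher and 12.3% lower. Macrophage markers averaged 8.59 to 9.51 over 4 genes in healthy muscle against 8.22 to 8.47 in diabetic and macroangiopathy muscle, and 3 of 4 were called lower in each. White fat markers averaged 10.31 to 11.61 in healthy muscle and 8.77 to 10.25 in those 2 groups. Of these 5 genes only 2 were called lower in each, the adipocyte genes Cfd and Retn (-3.81 and -2.67 in diabetic muscle). In macroangiopathy muscle 1 of the 5 was higher at an unadjusted p below 0.05 in limma. The list's median differences were -0.67 in diabetic and -0.92 in macroangiopathy muscle. Red cell markers were lower in diabetic muscle (3 of 3 genes), while 1 of 4 tendon markers, Comp, was higher by 1.80, and 2 of 6 smooth muscle markers, Smtn and Lmod1, were higher by 1.25 and 0.89. The smooth muscle list as a whole did not rise, with a median difference of -0.11. Its mean was 10.38 to 10.50 in diabetic muscle, inside the 9.50 to 10.87 of healthy muscle. Of the 9 skeletal fibre markers, 3 were higher and 0 lower in diabetic muscle, with 2 and 0 in the macroangiopathy model. Cardiac and Schwann cell markers gave 0 calls in all muscle comparisons, with at most 2 and 1 genes at an unadjusted p below 0.05 in limma.

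The same markers were read in the treated groups. For comparison, 11.9% of all genes were called higher and 10.9% lower under huoxue, and 3.77% and 4.98% under rosiglitazone. Under huoxue 1 of 9 fibre markers (Tcap, -0.54), 1 of 6 smooth muscle markers (Smtn, -0.42) and 1 of 5 endothelial markers (Cdh5, -0.78) were lower, and 1 of 4 macrophage markers (Csf1r, 0.34) was higher. Under rosiglitazone 2 of 4 macrophage markers, Csf1r (0.38) and Emr1 (0.26), were higher, and fat, tendon and red cell markers gave 0 calls under either, with or without adjustment in limma. Under SHENQI compound and yangyinyiqi 0 markers of any list passed after adjustment, with 2 and 0 genes at an unadjusted p below 0.05 in limma. White fat markers had median differences of 0.85 and 0.60 there, and SHENQI muscle ran from 9.06 to 11.82 in their mean. Of 2 brown fat markers tested, Cidea was higher by 1.37 in diabetic against healthy muscle, where 17.5% of all genes were higher.

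The genes whose levels ran most like the slow set over the 21 muscle arrays were Ablim1 (Pearson's r = 0.899), Tecrl (0.89), Masp2 (0.848), Cops7a (0.847) and Ndrg4 (0.845). For the fast set they were Svil (0.781), Nav1 (0.749), Fbxl18 (0.713), Entpd4 (0.707) and Tpm2 (0.699). These are the highest of 11753 candidates, over arrays that share groups and slides, and are a description with no test.

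In aorta the same genes were far more variable. For 7 of them every aorta was below every muscle, and for Myh4 and Tnni2 only diabetic replicate 2 reached the muscle range. Tnni2 ran from 8.91 in healthy replicate 2 to 17.91 in diabetic replicate 2, a range of 9.0 where muscle spanned 0.25. Tnnt3 ran from 7.31 to 16.41, Myh4 from 7.97 to 16.74 and Myh7 from 7.33 to 14.14. The calcium pump gene Atp2a2 was the exception, at 8.66 to 10.20 in aorta and 9.50 to 10.33 in muscle, which overlap. That level is a mean of probes that differed in direction between the tissues. A_51_P451075 read 9.96 to 12.71 in aorta, below its 12.74 to 14 in muscle. A_52_P569001 read 10.02 to 11.59 in aorta and 9.16 to 10.26 in muscle, so it tended to be higher in aorta. The array files assign it to another transcript of the gene than A_51_P451075, and the part of the transcripts was not tested. A_52_P1156808 was above background on 4 aorta arrays and 0 muscle arrays. Tnni1 was above background on 17 of 21 aorta arrays and the other 9 genes on all 21.

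Single aortas carried these high values, and no group was high on all its arrays. In diabetic replicate 2 Tnni2 read 17.91, Myh4 16.74, Tnnt3 16.41 and Myh7 14.14, where the other diabetic aortas read 11.92 and 15.18 for Tnni2 and 9.59 and 8.56 for Myh7. In rosiglitazone replicate 1 Tnni2 read 17.76 and Myh1 12.70, the highest Myh1 of any aorta, while the slow Myh7 was at 7.33, the lower end of its range. Huoxue replicate 1 had the same form, with Tnni2 at 16.28 and Myh7 at 7.34, as did healthy replicate 3, with Myh4 at 14.93 and Myh7 at 7.63. Conversely, SHENQI replicate 1 had Myh7 at 11.67 and Myh4 at 9.49. The fast and slow genes thus did not rank the aortas alike.

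**Figure D4:**
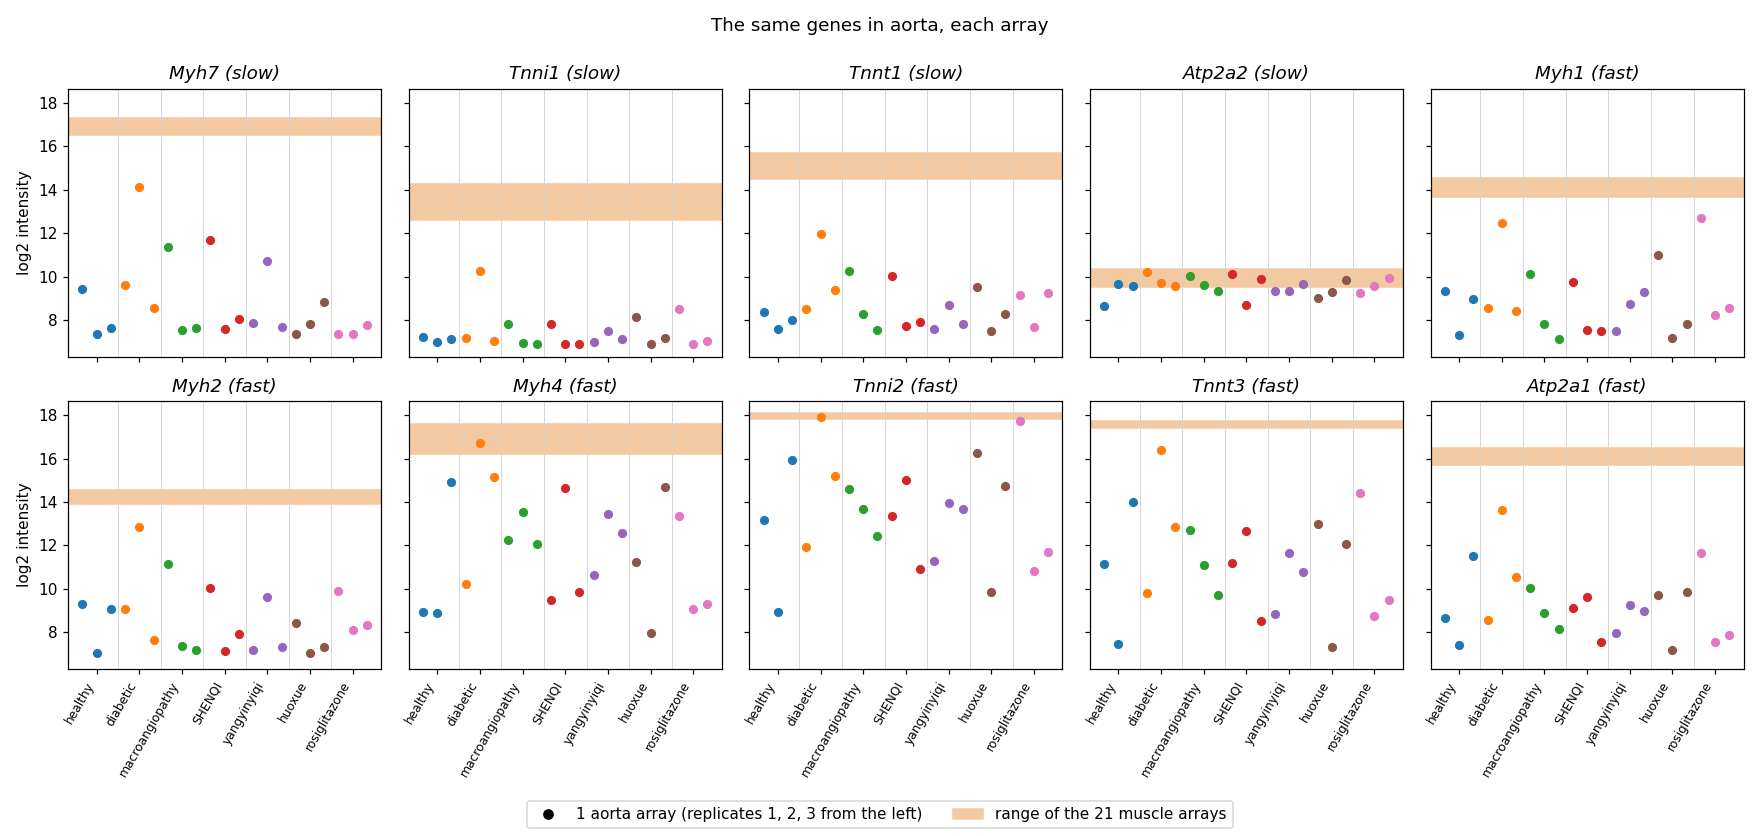
Levels (log2 intensity) of the 10 genes on each of the 21 aorta arrays, by group, with the muscle range for comparison. Points are single mice; diabetic replicate 2 is inside the muscle range for Tnni2 (17.91), and Atp2a2 lies within or near its muscle range on most arrays.

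The markers of skeletal and cardiac muscle were set beside these values. The mean of the 9 skeletal fibre markers was 13.20 in diabetic replicate 2, 12.71 in rosiglitazone replicate 1, 10.89 in huoxue replicate 1 and 10.86 in healthy replicate 3, the 4 highest of the aortas, and those 4 also had the 4 highest Tnni2 levels. Its lowest values were 8.63 in huoxue replicate 2 and 8.72 in rosiglitazone replicate 2, where Tnni2 read 9.84 and 10.81. The mean of 10 cardiac markers, such as the atrial genes Nppa and Myl7, ran from 8.05 to 11.19 in aorta and from 8.15 to 8.42 in muscle. SHENQI replicate 1 and macroangiopathy replicate 1, where Myh7 read 11.67 and 11.35, had cardiac means of 11.19 and 11.10, yet diabetic replicate 3 and rosiglitazone replicate 3 had means of 11.11 and 11.08 with Myh7 at 8.56 and 7.76. The smooth muscle markers, which define the wall of the aorta, averaged 12.43 to 14.67 in 20 aortas and 9.50 to 10.87 in muscle. The part of skeletal or cardiac tissue in the aorta values was not tested.

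**Figure D5:**
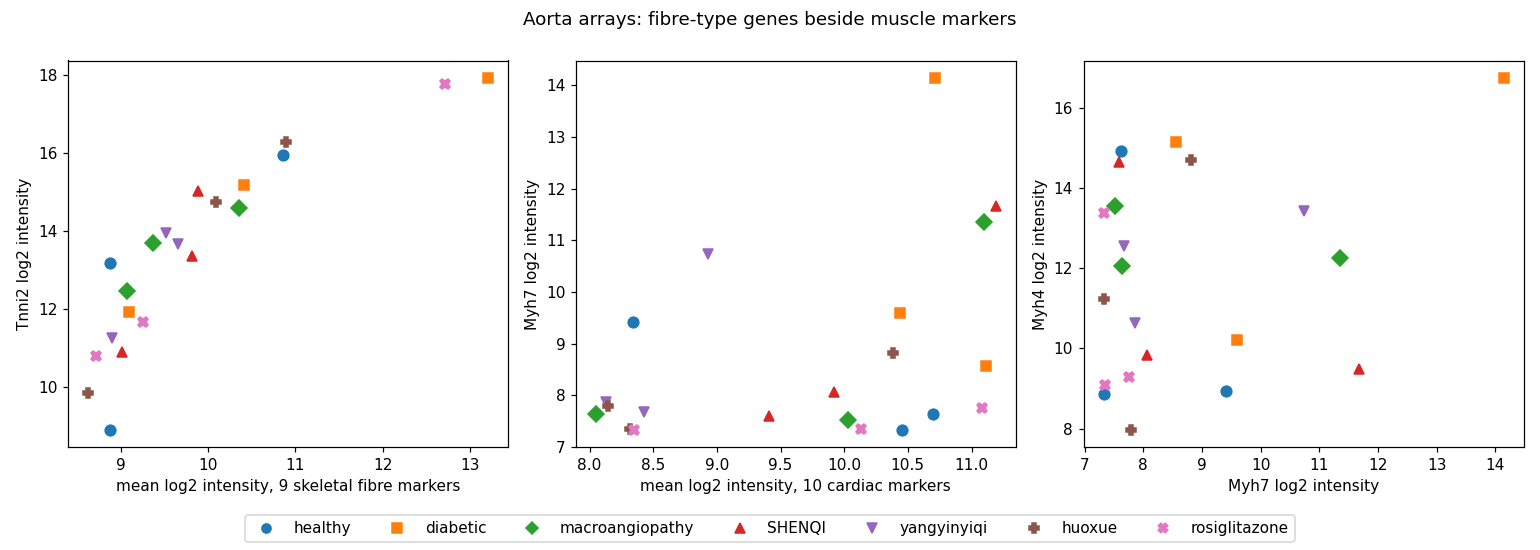
Aorta arrays as single points: Tnni2 against the mean of 9 skeletal fibre markers, Myh7 against the mean of 10 cardiac markers, and Myh4 against Myh7 (all log2 intensity). Tnni2 is high where the fibre markers are high, and on the 5 arrays with the highest Myh4 the Myh7 level was 7.59 to 8.81 on 4 and 14.14 on 1.

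Healthy aorta replicate 1 stood apart from the other 20. Its smooth muscle mean was 9.85, below the 12.43 to 14.67 of the others and within the range of muscle, its tendon mean of 7.41 was the lowest and its macrophage mean of 10.19 the highest. Results against healthy aorta are therefore also given without it.

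No member passed after adjustment in any of the 7 aorta comparisons (limma, 0 of 10 in each). The share of all genes that passed was 4.78% for diabetic and 7.73% for macroangiopathy against healthy aorta, and 0% in the other 5. Without healthy replicate 1 the shares were 4.04% and 4.93%, and again no member passed. At an unadjusted p below 0.05, 1 member passed, in diabetic against healthy aorta, where 21.2% of all genes did. In the other aorta comparisons 0 members passed in limma at that p, against 25.9% of all genes in macroangiopathy against healthy aorta, 1.7% in macroangiopathy against diabetic aorta, and 1.51%, 0.442%, 0.943% and 3.49% under SHENQI compound, yangyinyiqi, huoxue and rosiglitazone. Tnnt1 read 8.38, 7.57 and 8.01 in healthy aorta and 8.49, 11.94 and 9.36 in diabetic aorta, a difference of 1.94 ± 0.89 (limma unadjusted p = 0.0461, adjusted p = 0.226). The arrays did not overlap, as for 20% of all genes. Without healthy replicate 1 it was 2.14 (adjusted p = 0.327), and without diabetic replicate 2 it was 0.94 (adjusted p = 0.634). Myh4 differed by 3.11 ± 2.13 between diabetic and healthy aorta, 2.13 without healthy replicate 1 and 1.76 without diabetic replicate 2. Myh7 differed by 2.64 ± 1.43, 3.28 without healthy replicate 1 and 0.95 without diabetic replicate 2. Differences of that size lay within the spread of single mice. Of the gene lists, those of fast and slow companions, developing muscle and regulators and the skeletal, cardiac, endothelial, Schwann cell and macrophage markers gave 0 calls in any aorta comparison, with at most 3 genes of a list at an unadjusted p below 0.05 in limma. In macroangiopathy against healthy aorta, 2 of 6 smooth muscle, 1 of 3 tested tendon and 3 of 3 red cell markers were higher, 1 of 5 white fat markers (Retn) and 1 of 3 brown fat markers (Elovl3) were lower. In diabetic against healthy aorta, 1 red cell and 1 white fat marker (Lep) were higher, and Retn and Elovl3 were lower. Without healthy replicate 1 no smooth muscle or tendon marker was called in either comparison, with 0 and 5 smooth muscle and 3 and 3 tendon markers at an unadjusted p below 0.05 in limma for diabetic and macroangiopathy aorta. Of the red cell markers 1, Hbb-b1, was then higher in macroangiopathy aorta and 0 in diabetic aorta. Retn and Elovl3 were lower in both, Lep was no longer called, and Cfd and the regulator Ppargc1a were called lower in macroangiopathy aorta.

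Between macroangiopathy and healthy aorta the members differed by -0.19 for Myh1 to 1.71 for Myh4, and without healthy replicate 1 by -0.45 for Atp2a1 to 1.36 for Myh7. Huoxue and rosiglitazone aorta, whose muscles had lower Myh4, had Myh4 differences of -1.32 ± 2.13 and -2.04 ± 2.13 from the untreated model (limma adjusted p = 1 for both). In muscle the standard error of the same differences was 0.10.

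Whether the changes differed between tissues was tested as an interaction over all 42 arrays. No member passed in any of the 7 comparisons, after adjustment or without it (limma, smallest adjusted p = 0.525), where 2.08% and 4.93% of genes passed for diabetic and macroangiopathy against healthy tissue, 0.229% for huoxue, 0.0379% for rosiglitazone and 0% in the other 3. With the aorta's spread in the fit, changes of the size seen in muscle were not detectable as differences between the tissues. The genes that ran most like the mean of all members over the 21 aortas were Nrap (Pearson's r = 0.942), Cmya5 (0.921), the giant sarcomere gene Ttn (0.908), the calcium release channel gene Ryr1 (0.908) and Rpl3l (0.9), of 12633 candidates and with no test.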

How the data were processed

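The authors hybridized total RNA to Agilent arrays of 1 colour, 42 in all, 1 per mouse and tissue. The deposited scanner files, made with Feature Extraction 10.7.3.1 per the file headers, give for 45018 spots (1639 controls) the median intensity of spot and local background before correction, and marks, used here as 0 or 1 (a score set by the software), for spots above background, irregular or saturated. A second deposited table gives log2 values with equal quantiles, which the study's methods tie to limma's background correction and quantile normalization without naming the correction method. Gene symbols were in 8 of the files and were joined by probe to the other 34.

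Intensities were corrected with normexp (limma 3.58.1, R 4.3.3, offset 0), quantile normalized over 42 arrays and put on the log2 scale, with irregular spots missing; spots were averaged per probe (41174 probes) and probes per gene symbol. Each tissue's 21 arrays were fitted with 7 group means (lmFit, eBayes), and Benjamini-Hochberg adjustment ran over all genes detected (a probe well above background on every array of 1 or both of the groups compared), at a threshold of 0.05. Groups came from the sample labels, and 0 value columns were left without a sample. Differences between tissues were interactions over all 42 arrays with 14 means. Every member was named, with at most 3 called genes per list and comparison, the largest changes; a further called gene, Myl3, and the called aorta markers were added after their values were seen. The members, lists and tests were chosen with earlier results of these data known. Simulated data with 200 changed genes were used to test the fit. No pair of arrays was identical. The number of arrays limits the precision. Same-numbered replicates did not deviate together (every pair above 0.1 in 0 of 14 comparisons, pair correlations from -0.53 to 0.64), so numbers were not used to pair mice. Promoter and motif windows came from RefSeq (GRCm38.p6). Figures were made with matplotlib 3.10.9 in Python 3.11.15.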

Additional observations from a re-analysis of the deposited data

How the results depend on the processing

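The counts of members called, 4 for diabetic and 2 for macroangiopathy against healthy muscle and 4 for huoxue and 2 for rosiglitazone against the untreated model, were recomputed under each alternative. Median centring without quantile normalization gave 0, 0, 0 and 0 in these 4 comparisons, as did a fit of all 42 arrays, which takes in the larger spread of aorta and gave 1 call in diabetic against healthy aorta (Tnnt1, 1.94, limma adjusted p = 0.0395). With median centring the differences were -1.01 for Myh4, -0.94 for Myh7, -0.45 for Tnni1 and -0.71 for Tnnt1 in diabetic against healthy muscle, -1.29 for Myh4 and -1.16 for Tnnt1 in macroangiopathy against healthy muscle, and 0.05 for Myh1 and 0.25 for Tnnt3 under huoxue, and the cause was not tested. For diabetic against healthy muscle the authors' value table gave 2 calls and scan day as a block, chosen after seeing the data, gave 2. These groups shared no scan day, and only rosiglitazone muscle linked their days. For macroangiopathy against healthy muscle, subtraction of the local background gave 1, the brightest probe 4, the authors' values 1, only the 6 arrays compared 0, slide as a random block 0 (slide correlation 0.285 in muscle), and eBayes with trend and robust options 1. For huoxue the processed signal less each array's 75th percentile gave 2 and slide as a random block 2. For rosiglitazone they gave 0 and 1, and scan day gave 1.

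Leaving out 1 array gave 3 to 6 calls for diabetic and 0 to 3 for macroangiopathy against healthy muscle, 2 to 3 for huoxue, 1 to 3 for rosiglitazone and 0 in all other comparisons and interactions. For single called members, 136 of 192 values under other settings kept direction and call, 48 kept the direction alone and 8 turned, and with 1 array left out the numbers were 56, 16 and 0 of 72. The replicate block gave 4, 2, 3 and 2 calls in the 4 comparisons, losing Tnnt3 under huoxue (-0.16, adjusted p = 0.0555), and it changed no other count. A fit with slide as a fixed block could not be had for these 4 comparisons in muscle. Setting saturated spots to missing was not run because 0 spots were marked as saturated. Many bright spots were instead marked as scaled up from a less sensitive scan. In muscle this held on 21 arrays for each Myh4 and Myh7 probe and for Tnni2, and on 20 for Tnnt1. Of the Tnni1 probes, A_52_P657360 was so marked on 5 muscle arrays and A_51_P435704 on 0. The part of this scaling in the results was not tested. The narrow range of Tnni2 at the top of the muscle intensities limits what its level can show.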
